A study of Rattus norvegicus with 8 samples.

Results

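Cadherins and protocadherins were read from arrays of whole rat hippocampi as 36 gene names with 45 probes, out of 12553 gene names with 15207 probes that are not controls. A probe was a member when its gene name on the array began with Cdh and a digit or with Pcdh, a rule that uses no measured value. The 45 probes hold 39 different sequences, because 6 sequences are printed at 2 spots. By class there were 4 probes of type I classical cadherins, 12 of type II classical cadherins, 6 of other cadherins, 12 of clustered protocadherins and 11 of other protocadherins.

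Hippocampi were taken from rats of 2 months. The PNFLX group (n = 4) had received fluoxetine, a selective serotonin reuptake inhibitor, as pups at 10 mg/kg, and the control group (n = 4) a vehicle of 5% sucrose. Treatment ran between postnatal days 2 and 21 per the treatment protocol, while the descriptions of the single samples give end days of 25 to 28 for PNFLX and 21 to 24 for control, in step with the sample order. By those descriptions the end day and the group cannot be told apart. The strain, sex and litters of the animals are not given in the sources used here, so p-values measure the spread between these samples only. The study asks which hippocampal transcripts differ in adult animals after fluoxetine early in life. In bulk tissue, fewer cells of a type and less RNA per cell cannot be told apart.

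Cadherins are membrane proteins that bind their like on a neighbouring cell in the presence of calcium. Classical cadherins hold to the actin skeleton through catenins and, in neurons, stand at both sides of the synaptic cleft. Clustered protocadherins are encoded by the neighbouring alpha, beta and gamma gene clusters. A neuron expresses a few of them, and the mix on its surface lets its dendrites and axons recognise and avoid their own branches. The other protocadherins, among them the delta family, lie apart from the clusters and act in axon growth and in the remodelling of synapses.

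Which sequence a probe carries matters in a family of near copies, so the pairs of member probes most alike are shown, with the bases that match at the aligned positions in capitals. All are 60 bases, 5′ to 3′, from the array files, and positions are on rn4 as those files give them. Pcdhga11 (chr18:30692908-30692967) and Pcdhga5 (chr18:30629285-30629344), both of the gamma cluster and on the plus strand, shared 37 of 51 aligned bases (72.5%), with a longest shared run of 11.
Pcdhga11: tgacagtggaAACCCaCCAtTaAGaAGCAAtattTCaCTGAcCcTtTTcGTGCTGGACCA
Pcdhga5: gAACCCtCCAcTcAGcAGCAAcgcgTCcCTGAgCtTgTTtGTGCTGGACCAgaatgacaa
Pcdha2 (chr18:29699012-29699071) and Pcdha4 (chr18:29711969-29712028), of the alpha cluster and on the plus strand, shared 32 of 46 aligned bases (69.6%).
Pcdha2: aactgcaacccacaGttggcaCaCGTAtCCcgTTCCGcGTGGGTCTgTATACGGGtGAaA
Pcdha4: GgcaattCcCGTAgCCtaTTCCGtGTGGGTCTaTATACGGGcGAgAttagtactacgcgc
Cdh10 (chr2:69623898-69623957) and Cdh9 (chr2:66859522-66859581), type II cadherins on the plus strand, shared 26 of 39 aligned bases (66.7%).
Cdh10: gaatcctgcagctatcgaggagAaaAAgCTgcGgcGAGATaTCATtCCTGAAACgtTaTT
Cdh9: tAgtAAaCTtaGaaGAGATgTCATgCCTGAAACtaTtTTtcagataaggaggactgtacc
Over all 741 pairs of member sequences, each aligned without gaps over at least 30 bases where identity was highest, the median identity was 41.7%. Each of these genes is reported by its own probe, and signal from a near copy cannot be told apart from its own.

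Every probe value that follows is on a log2 scale, the spot's processed signal over the 75th percentile of its array. So 0 is the 75th percentile and each step of 1 is a doubling. Summed levels of marker lists are not on a log2 scale. Levels are compared between samples of the same probe and never between different probes. Of the 45 member probes 41, of 33 gene names, passed as well above background on 4 or more of the 8 arrays and were tested. A total of 32 were well above background on all 8 arrays. The 4 that were not tested were Cdh19, a cadherin of the Schwann cell lineage, Cdh26, Cdh17, the liver and intestine cadherin, and 1 of the 3 Pcdhga5 probes. Cdh17 and that Pcdhga5 probe (spot row 47) were not well above background on any array. Cdh19 was so on 1 PNFLX array and 1 control array, and Cdh26 on 1 PNFLX array and no control array.

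No cadherin or protocadherin probe passed the test. The count called by limma at an adjusted p under 0.05 was 0 of 41 members, against 78 of all 11600 probes tested (0.672%), 43 higher (0.371%) and 35 lower (0.302%) in PNFLX. At an unadjusted p under 0.05 limma gave 8 members (19.5%), against 1448 of all probes (12.5%). Of the 8, 3 were higher in PNFLX, where the share of all probes was 5.09%, and 5 were lower, where it was 7.4%. The values of the 4 PNFLX samples and the 4 control samples did not overlap for 6 members (14.6%), against 10.7% of all probes tested. Of these, 3 were higher in PNFLX, where the share of all probes was 4.33%, and 3 were lower, where it was 6.41%. Among the 3 higher, Cdh5 (row 31) passed the filter mainly through PNFLX, well above background on 3 PNFLX arrays and 1 control array. Pcdh12 was so on 3 and 2. With normexp background correction, which moved the median of all probes to -0.38, all 3 lay below 0. The log2 difference was above 0 for 19 members and below 0 for 22, with a median of -0.03, equal to that over all probes at 2 decimals (-0.03), where 45.5% lay above 0. The smallest adjusted p of a member in limma was 0.134.

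The classes differed in their counts. Of the 15 classical cadherin probes tested 9 lay above 0 and 6 below, with a median of 0.07. Of the 11 clustered protocadherin probes 1 lay above 0 and 10 below, with a median of -0.19. All 3 with an unadjusted limma p under 0.05 were lower (27.3%), where the share of all probes was 7.4%. Of the 11 other protocadherin probes 7 lay above 0 and 4 below, with a median of 0.09. This class holds the Pcdh21 probes, placed by their name on the array, whose gene RefSeq calls Cdhr1. The 4 other cadherin probes tested split 2 and 2, with a median of -0.08. These are descriptions of the members, with no test of a class, and probes of 1 sequence or 1 gene count more than once. With spots of 1 sequence averaged, 1 of 8 clustered protocadherin sequences lay above 0 and 7 below. Pcdhga5 then had an unadjusted limma p of 0.0966. Without scaling between arrays the clustered protocadherins split 8 above and 3 below, while the median of all probes moved to 0.26. Relative to all probes their median was then -0.1545, against -0.1553 with scaling. With each array's spot row and column medians subtracted they split 4 above and 7 below, with the median at -0.19. Markers of neurons, oligodendrocytes and microglia also lay mostly below 0, with 0 called by limma. Below 0 were 6 of 8 neuron probes (median -0.16), 11 of 11 oligodendrocyte probes (median -0.28) and 11 of 13 microglia probes (median -0.18). Of all probes tested 45.5% lay above 0. Astrocyte (5 of 8), endothelial (8 of 12) and choroid plexus (7 of 7) probes lay mostly below 0 as well. Above 0 were 5 of 5 blood probes and 14 of 17 meningeal and fibroblast probes. So were 2 of 3 ependymal, 2 of 3 thalamus and cortex, and 4 of 7 hippocampal subfield probes. The summed neuron level lay between 118.5 and 135 in PNFLX and between 112 and 159 in control, that of oligodendrocytes between 75.9 and 111 in PNFLX and between 94.2 and 132 in control, and that of microglia between 28 and 33.3 in PNFLX and between 30.5 and 35.5 in control, as multiples of the 75th percentile. The part of these cell types in the protocadherin values was not tested.

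**Figure D1:**
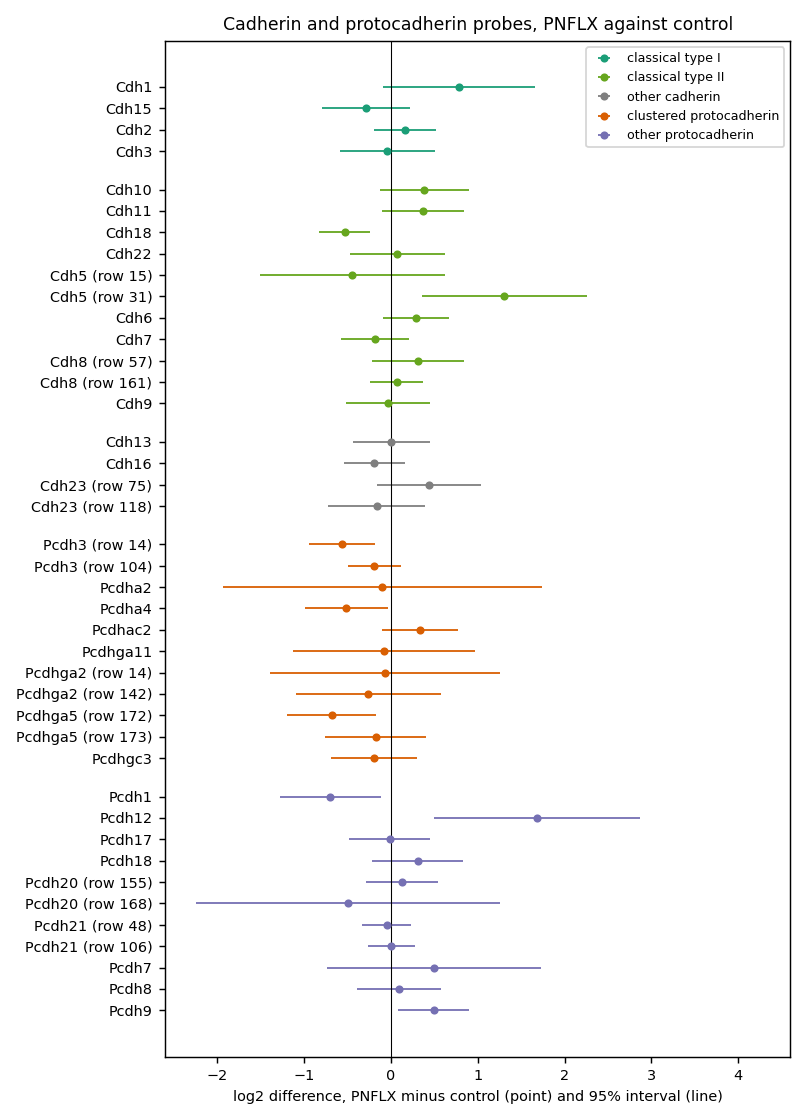
Log2 difference, PNFLX minus control, of the 41 member probes tested, with 95% intervals as lines, coloured by class. Most intervals cross 0; those of Cdh18, Cdh5 (spot row 31), Pcdh3 (row 14), Pcdha4, Pcdhga5 (row 172), Pcdh1, Pcdh12 and Pcdh9 do not, and none of these passed the adjusted threshold.

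Across the 8 arrays the 75th percentile of the processed signal lay between 654 and 941, and the share of probes well above background between 70.5% and 77.9%. The correlation of arrays over all 15207 probes, with outlier-flagged spots kept, lay between 0.956 and 0.984. Of the 78 probes called, 53 lay in the first or last 5 of the 192 spot rows, where the median log2 difference was 0.75 in the first rows and -0.79 in the last. Of the members 0 lay in the first 5 rows and 1, Pcdha2 in row 190, in the last 5. All 8 arrays shared 1 slide, with PNFLX in its second row of arrays and control in its first, and the groups and the rows of the slide cannot be told apart. Choroid plexus markers, 7 probes of 6 genes tested, stood far higher in control 4 than elsewhere. Their summed level, as multiples of the array's 75th percentile, was 42.6 there and 0.364, 0.703 and 1.18 in control 1 to 3. In PNFLX 1 to 4 it was 3.05, 0.589, 0.478 and 0.819. The part of choroid plexus in the member values was not tested.

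Among the type I cadherins, which mediate strong homophilic adhesion, no probe reached an unadjusted p under 0.05. Cdh2, N-cadherin, is the main classical cadherin of excitatory synapses. It had 0.81, 0.69, 0.98 and 1.18 in PNFLX 1 to 4, against 0.95, 0.59, 0.69 and 0.77 in control 1 to 4. The groups overlapped, PNFLX 4 held the highest value, and the log2 difference was 0.16 (SE 0.15, 95% interval -0.19 to 0.52, limma adjusted p = 0.682).

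Cdh1, E-cadherin, joins epithelial cells. Its values were -2.81, -4.54, -4.46 and -3.88 in PNFLX 1 to 4, against -5.09, -4.87, -4.55 and -4.33 in control 1 to 4. PNFLX 1 stood highest, while PNFLX 2 and 3 lay within the control range. Between the groups the log2 difference was 0.79 (SE 0.38, limma adjusted p = 0.452). Markers of meninges and fibroblasts, 17 probes of 11 genes tested, also stood highest in PNFLX 1: their summed level, as multiples of the array's 75th percentile, was 168, 82.1, 65.8 and 82.0 in PNFLX 1 to 4, against 54.1, 66.8, 79.8 and 65.9 in control 1 to 4. Of these probes 14 lay above 0 and 3 below, 4 at an unadjusted p under 0.05, all higher, and 0 called by limma. Their part in the Cdh1 values was not tested.

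Cdh3, P-cadherin, had a log2 difference of -0.04 (SE 0.24), and Cdh15, the cadherin of muscle precursors, one of -0.29 (SE 0.22). Both groups of each overlapped.

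The type II cadherins gave the member of smallest p, Cdh18, a cadherin expressed mainly in the nervous system. Its probe (chr2:74705119-74705178, plus strand) is shown because no other member lay nearer the threshold.
Cdh18: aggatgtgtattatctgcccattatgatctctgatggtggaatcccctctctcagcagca
Cdh18 had -3.77, -3.67, -3.39 and -3.60 in PNFLX 1 to 4, against -2.99, -3.15, -3.04 and -3.12 in control 1 to 4. Every PNFLX sample lay below every control sample, and the control samples lay close together. The means were -3.61 ± 0.16 in PNFLX and -3.07 ± 0.07 in control (SD, n = 4 each). Limma put the log2 difference at -0.53 (SE 0.13, 95% interval -0.83 to -0.24), a 1.45-fold higher level in control, with a limma adjusted p of 0.134. Over the alternatives its adjusted p ran between 0.0934 (without PNFLX 3) and 0.517 (normexp background correction), and between 0.166 and 0.335 with each other sample left out.

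Cdh5, VE-cadherin, is the adhesion molecule of endothelial junctions, and its 2 probes of different sequence went opposite ways. The probe in spot row 31 (chr19:779103-779162, minus strand) had -5.27, -5.47, -4.92 and -5.67 in PNFLX 1 to 4, against -6.03, -7.30, -7.49 and -5.74 in control 1 to 4. The groups did not overlap, but PNFLX 4 and control 4 lay close, and the probe was well above background on 3 PNFLX arrays and 1 control array. The log2 group difference was 1.31 (SE 0.41, limma adjusted p = 0.252). The probe in row 15, whose position on rn4 spans 1435 bases (chr19:788852-790286), had -5.25, -5.45, -4.03 and -4.97 in PNFLX 1 to 4, against -5.07, -3.39, -4.21 and -5.26 in control 1 to 4. Here the groups overlapped, control 2 was highest, and the log2 difference was -0.44 (SE 0.46, limma adjusted p = 0.715). This probe was well above background on 4 PNFLX arrays and 3 control arrays. With normexp background correction, which moved the median of all probes to -0.38, both probes lay below 0, that in row 31 at -0.77.

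Other endothelial markers stood beside Cdh5 as follows. Of 12 endothelial probes tested, of 9 genes, 4 lay above 0 and 8 below. Emcn, endomucin, was called higher at 2.30 (SE 0.33, limma adjusted p = 0.0277) by a probe in spot row 1, among the end rows described above. That probe was well above background on 5 of the 8 arrays. Pecam1, a defining marker, was well above background on 2 of the 8 arrays and was not tested. The summed endothelial level was 26.9, 23.2, 18.4 and 16.8 in PNFLX 1 to 4, against 24.6, 21.4, 22.4 and 24.4 in control 1 to 4. Its part in the Cdh5 values was not tested.

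Cdh11, found in mesenchymal cells and in neurons, had -3.04, -2.97, -2.28 and -2.72 in PNFLX 1 to 4, against -3.24, -3.19, -3.28 and -2.76 in control 1 to 4. All PNFLX samples lay above control 1 to 3, but control 4 lay above PNFLX 1 and PNFLX 2. The difference on the log2 scale was 0.37 (SE 0.21, limma adjusted p = 0.506).

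Cdh6 had -0.37, -0.33, -0.42 and 0.06 in PNFLX 1 to 4, against -0.70, -0.65, -0.62 and -0.25 in control 1 to 4. The fourth sample was the highest in each group, control 4 lay above PNFLX 1 to 3, and the log2 difference was 0.29 (SE 0.17, limma adjusted p = 0.514). Cdh10 had a log2 difference of 0.38 (SE 0.22, limma adjusted p = 0.520). Cdh9, needed in mice for mossy fibre synapses on their hippocampal target cells, had one of -0.03 (SE 0.21), and its probe is the one most like that of Cdh10.

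Cdh8, a type II cadherin of synapses, has 2 probes of different sequence. The probe in row 161 had -1.40, -1.50, -1.52 and -1.61 in PNFLX 1 to 4, against -1.50, -1.37, -1.74 and -1.69 in control 1 to 4. The probe in row 57 had -5.38, -5.49, -5.41 and -4.65 in PNFLX 1 to 4, against -5.88, -5.31, -5.68 and -5.31 in control 1 to 4. The groups overlapped for both. The log2 differences were 0.07 (SE 0.13) in row 161 and 0.31 (SE 0.23) in row 57, where the probe was well above background on 3 PNFLX arrays and 2 control arrays. Of the remaining type II members tested, Cdh7 had a log2 difference of -0.18 (SE 0.17) and Cdh22 one of 0.07 (SE 0.24). The Cdh22 probe is placed on chromosome 6 in the array files, while RefSeq places the gene on chromosome 3, the only such mismatch among the members.

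The other cadherins include proteins that lack the catenin-binding tail of the classical ones. Cdh13, T-cadherin, is held in the membrane by a lipid anchor and takes part in the making of excitatory and inhibitory synapses. It had 1.85, 1.92, 2.15 and 2.43 in PNFLX 1 to 4, against 1.96, 2.29 and 2.01 in control 2 to 4, with the spot of control 1 left out for its outlier flag. The groups overlapped, and the log2 difference was 0.00 (SE 0.19, 95% interval -0.44 to 0.45). Cdh16, the kidney cadherin, had a log2 difference of -0.19 (SE 0.15).

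Cdh23, a cadherin of the tip links of hair cells, is printed with 1 sequence at 2 spots. In row 75 the values were -5.26, -5.71, -6.23 and -5.24 in PNFLX 1 to 4, against -6.46, -5.80, -5.80 and -6.15 in control 1 to 4. In row 118 they were -4.82, -5.84, -5.71 and -5.24 in PNFLX 1 to 4, against -5.00, -5.53, -5.34 and -5.08 in control 1 to 4. The log2 differences had opposite signs, 0.44 (SE 0.26) in row 75 and -0.17 (SE 0.25) in row 118. With the spots averaged the log2 difference was 0.14 (SE 0.22).

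The clustered protocadherins all lie on rat chromosome 18, and their probes fall between bases 29699012 and 30743362 of rn4. They cover the alpha cluster with Pcdha2, Pcdha4 and Pcdhac2, the beta cluster with the probes named Pcdh3, whose gene RefSeq calls Pcdhb12, and the gamma cluster with Pcdhga2, Pcdhga5, Pcdhga11 and Pcdhgc3. RefSeq places all 3 alpha names under its Pcdha4 gene, so the array's names are kept here.

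In the alpha cluster, Pcdha4 had -4.29, -4.08, -3.57 and -4.24 in PNFLX 1 to 4, against -3.91, -3.40, -3.33 and -3.49 in control 1 to 4. PNFLX 3 lay above control 1, and the other PNFLX samples lay below all controls. The log2 difference was -0.51 (SE 0.21, limma adjusted p = 0.362). Pcdha2, the probe in the end rows, had values between -6.14 and -2.81 in PNFLX and between -5.83 and -3.35 in control. Its log2 difference was -0.10, with a 95% interval of -1.93 to 1.74 that leaves its direction unknown.

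Pcdhac2 was the only tested clustered protocadherin probe with a log2 difference above 0. In mice the isoform of that name is expressed in serotonergic neurons and is needed for the even spacing of their axons. Exon annotation was not used, so whether this probe reads that isoform alone or also other alpha transcripts is not known. The probe had 1.51, 1.99, 2.02 and 2.33 in PNFLX 1 to 4, against 1.74, 1.37, 1.69 and 1.71 in control 1 to 4. PNFLX 2 to 4 lay above every control, and PNFLX 1 lay below all controls but control 2. Between the groups the log2 difference was 0.34 (SE 0.19, 95% interval -0.10 to 0.78, limma adjusted p = 0.514).

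In the beta cluster, Pcdh3 (chr18:30273315-30273374, plus strand) is printed with 1 sequence at 2 spots. In row 14 it had -2.90, -3.05, -2.90 and -2.64 in PNFLX 1 to 4, against -2.39, -1.93, -2.44 and -2.47 in control 1 to 4. Every PNFLX sample lay below every control sample, and the log2 difference was -0.57 (SE 0.17, limma adjusted p = 0.218). In row 104 it had -3.12, -3.13, -2.92 and -2.72 in PNFLX 1 to 4, against -2.77, -2.74, -2.81 and -2.81 in control 1 to 4. PNFLX 4 lay above every control there, and the log2 difference was -0.19 (SE 0.13, limma adjusted p = 0.588). Averaged over both spots it was -0.38 (SE 0.14, limma adjusted p = 0.337).

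In the gamma cluster, Pcdhga5 has 1 sequence at 2 spots and the dim probe named above. In row 172 it had -4.56, -4.70, -4.14 and -5.21 in PNFLX 1 to 4, against -4.02, -4.13, -3.85 and -3.87 in control 1 to 4. The groups did not overlap, though PNFLX 3 and control 2 lay next to each other, and the log2 difference was -0.68 (SE 0.22, limma adjusted p = 0.268). In row 173 it had -4.16, -4.74, -3.93 and -4.83 in PNFLX 1 to 4, against -4.53, -4.42, -3.81 and -4.19 in control 1 to 4. There the groups overlapped and the log2 difference was -0.18 (SE 0.25). Averaged over both spots it was -0.43 (SE 0.23, limma adjusted p = 0.489). The dim probe in row 47 had -7.11, -7.25, -6.54 and -7.19 in PNFLX 1 to 4, against -7.10, -7.40, -7.58 and -6.24 in control 1 to 4, all of them not well above background.

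Pcdhga2 (chr18:30603943-30604002, plus strand) shows how far spots of 1 sequence can stand apart, and its sequence is given for that.
Pcdhga2: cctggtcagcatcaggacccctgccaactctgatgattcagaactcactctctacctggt
In row 14 it had -5.35, -4.76, -2.33 and -3.93 in PNFLX 1 to 4, against -4.41, -3.81, -3.91 and -3.98 in control 1 to 4. In row 142 it had -3.56, -3.43, -3.22 and -3.61 in PNFLX 1 to 4, against -4.37, -2.65, -2.69 and -3.06 in control 1 to 4. The median absolute gap between both spots of an array was 1.04 and the largest was 1.79. The log2 differences were -0.06 (SE 0.58) in row 14 and -0.26 (SE 0.36) in row 142.

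Pcdhga11, the probe most like that of Pcdhga5, had a log2 difference of -0.08 (SE 0.46) and was well above background on 1 PNFLX array and 3 control arrays. Pcdhgc3, which in mice promotes the branching of dendrites, had one of -0.20 (SE 0.22).

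**Figure D2:**
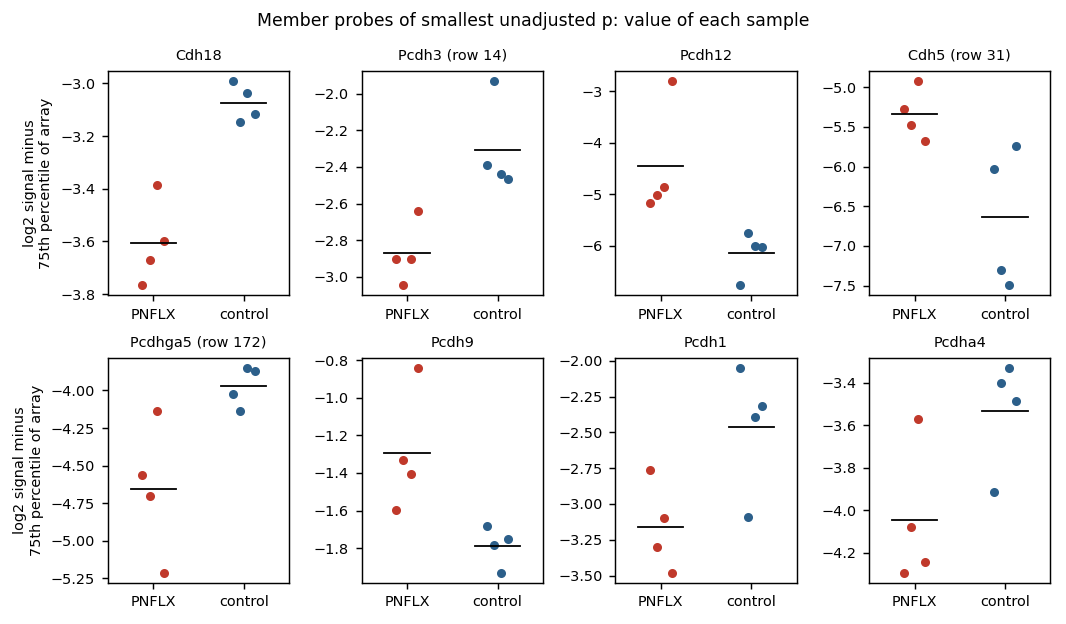
Values of each sample for the 8 member probes with an unadjusted p under 0.05, on a log2 scale with the 75th percentile of each array at 0; points are samples (PNFLX left, control right) and lines are group means. The groups do not overlap for 6 of the 8, with gaps as narrow as those of Cdh5 (row 31) and Pcdhga5 (row 172), while Pcdh1 and Pcdha4 overlap.

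Of the other protocadherins, Pcdh9, a delta protocadherin of neurons, had the smallest p among those well above background on all arrays. It had -1.60, -1.33, -1.41 and -0.84 in PNFLX 1 to 4, against -1.68, -1.79, -1.93 and -1.75 in control 1 to 4. Every PNFLX sample lay above every control sample, with PNFLX 1 and control 1 nearest each other. Limma put the log2 difference at 0.49 (SE 0.18, 95% interval 0.09 to 0.90, limma adjusted p = 0.313). With normexp background correction, under which the median of all probes moved to -0.38, it was -0.15.

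Pcdh1, another delta protocadherin, lay the other way. Its probe is on the minus strand of rn4 (chr18:31145937-31145996).
Pcdh1: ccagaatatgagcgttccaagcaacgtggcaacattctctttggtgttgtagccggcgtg
It had -2.76, -3.30, -3.10 and -3.48 in PNFLX 1 to 4, against -2.05, -3.09, -2.39 and -2.31 in control 1 to 4. Control 2 lay among the PNFLX values, and the other controls lay above all PNFLX samples. The log2 group difference was -0.70 (SE 0.25, limma adjusted p = 0.313).

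Pcdh12, like Cdh5 a cadherin of endothelial cells, had the largest log2 difference of the members. Its probe is also on the minus strand (chr18:31224557-31224616).
Pcdh12: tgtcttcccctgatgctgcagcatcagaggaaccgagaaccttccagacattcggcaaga
Its values were -5.16, -5.01, -4.86 and -2.80 in PNFLX 1 to 4, against -6.76, -5.75, -6.01 and -6.03 in control 1 to 4. The groups did not overlap, PNFLX 4 stood far above the rest, and the probe was well above background on 3 PNFLX arrays and 2 control arrays. The means were -4.46 ± 1.11 in PNFLX and -6.14 ± 0.44 in control (SD, n = 4 each). The difference on the log2 scale was 1.68 (SE 0.52, limma adjusted p = 0.242), and 1.13 without PNFLX 4. With normexp it was -0.50, and that of Cdh5 in row 31 was -0.77. In PNFLX 4 the summed endothelial level given above was the lowest of the 8 samples. Endothelial content as a part of the Pcdh12 values was not tested.

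Pcdh8, also known as arcadlin, is induced by neuronal activity and in rat hippocampal neurons drives the uptake of N-cadherin from synapses. It had 0.54, 0.57, 0.59 and -0.15 in PNFLX 1 to 4, against 0.49, 0.20, 0.00 and 0.48 in control 1 to 4. PNFLX 1 to 3 lay above every control and PNFLX 4 below every control. The log2 difference was 0.09 (SE 0.21, 95% interval -0.39 to 0.57, limma adjusted p = 0.879).

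Pcdh17, which gathers at synapses of the basal ganglia circuits in mice, had -1.75, -1.80, -1.29 and -2.01 in PNFLX 1 to 4, against -1.84, -1.98, -1.61 and -1.35 in control 1 to 4. The ranges nearly coincided, and the log2 difference was -0.02 (SE 0.20, 95% interval -0.48 to 0.45). Pcdh18 had a log2 difference of 0.31 (SE 0.23). Pcdh7 had one of 0.50 (SE 0.54), with control 1 far below the other samples, and one of -0.10 without control 1.

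Pcdh20 is printed at 2 spots with 1 sequence. In row 155 it had -2.71, -2.56, -2.78 and -2.06 in PNFLX 1 to 4, against -2.56, -2.56, -2.67 and -2.83 in control 1 to 4. In row 168 it had -5.85, -2.43, -2.46 and -2.13 in PNFLX 1 to 4, against -2.61, -2.62, -3.12 and -2.53 in control 1 to 4. The spot of PNFLX 1 in row 168, which carries no outlier flag, lay 3.14 below its copy in row 155. The log2 differences were 0.13 (SE 0.18) in row 155 and -0.50 (SE 0.76) in row 168, where it was 0.38 without PNFLX 1.

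The probes named Pcdh21 belong to Cdhr1 of RefSeq, the photoreceptor cadherin, and hold 1 sequence as well. In row 48 they had 0.43, 0.39, 0.52 and 0.63 in PNFLX 1 to 4, against 0.58, 0.38, 0.56 and 0.64 in control 1 to 4. In row 106 they had 0.40, 0.53, 0.51 and 0.55 in PNFLX 1 to 4, against 0.44, 0.37, 0.51 and 0.64 in control 1 to 4. These spots agreed best of the 6 pairs, with a median absolute gap of 0.04, and the log2 differences were -0.05 (SE 0.12) and 0.01 (SE 0.12).

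**Figure D3:**
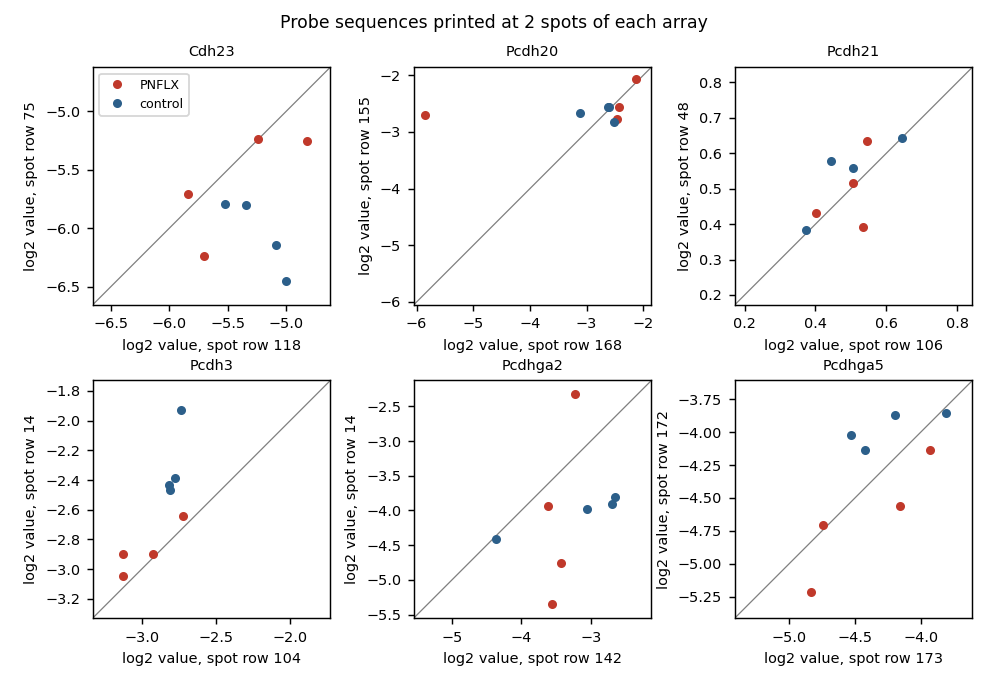
Log2 value of the same probe sequence at its 2 spots on each array, for the 6 member sequences printed at 2 spots; the grey line marks equal values, and points are samples (PNFLX red, control blue). Both spots of Pcdh21 stay within 0.142 of each other, while Pcdhga2 spots differ by up to 1.79 and those of Pcdh20 by 3.14 in PNFLX 1.

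Over the 6 sequences printed at 2 spots, the median gap between the spots of an array ran between 0.04 for Pcdh21 and 1.04 for Pcdhga2. The group difference had opposite signs at the 2 spots for 3 of the 6 (Cdh23, Pcdh20 and Pcdh21), and for Pcdh20 that rested on the single low spot of PNFLX 1. Of the 8 probes with an unadjusted p under 0.05, Pcdh3 and Pcdhga5 have such a second spot, and in both the second spot was lower in PNFLX by a smaller difference.

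PNFLX 4 held the highest value of the 8 samples for 15 of the 41 tested members (36.6%), against 22% of all probes tested, and the lowest for 9 members (22%), against 27.3% of all probes. For Pcdh12, Pcdh9, Cdh2, Cdh6 and Pcdhac2 the highest sample was PNFLX 4.

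Genes that work with cadherins gave no call either. Of the catenins and junction partners, 18 probes of 15 genes were tested, with 8 above 0, 10 below and 0 called. Ctnnb1, beta-catenin, the link between classical cadherins and alpha-catenin, has 4 probes with log2 differences between -0.56 and -0.01. Ctnna2, the alpha-catenin of neurons, had -3.50, -3.50, -3.00 and -3.84 in PNFLX 1 to 4, against -2.96, -2.82, -3.00 and -2.89 in control 1 to 4. PNFLX 3 and control 3 were nearly equal, the other PNFLX samples lay lower, and the log2 difference was -0.54 (SE 0.18, limma adjusted p = 0.285). Ctnnal1, a relative of alpha-catenin, had one of -2.93 (SE 0.76, limma adjusted p = 0.162) at a spot in row 192, the last of the array.

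Desmosomal and atypical cadherins, 9 probes of 7 genes tested besides the Pcdh21 probes, had 3 above 0, 6 below and 0 called. Cdhr5, a cadherin of intestinal microvilli, had -5.80, -7.05, -5.20 and -5.51 in PNFLX 1 to 4, against -5.11, -5.23, -5.12 and -4.89 in control 1 to 4. PNFLX 2 lay far below the rest, and the log2 difference was -0.80 (SE 0.36, limma adjusted p = 0.421), or -0.42 without PNFLX 2. The calsyntenins, cadherins of the postsynaptic membrane, lay below 0 at all 4 probes, and PNFLX 4 held the lowest value at each. Clstn1 had a log2 difference of -0.61 (SE 0.28, limma adjusted p = 0.420), or -0.33 without PNFLX 4. Clstn3 had one of -0.35 (SE 0.23), or -0.11 without PNFLX 4. Clstn2 had -0.48 (SE 0.39) in row 135 and -0.12 (SE 0.18) in row 137, or -0.17 and -0.01 without PNFLX 4.

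Regulators and signalling partners of protocadherins, 17 probes of 13 genes, had 10 above 0, 7 below and 0 called. Taok2, the kinase through which Pcdh8 acts on N-cadherin in rat neurons, had 0.07, -0.06, 0.10 and 0.11 in PNFLX 1 to 4, against 0.45, 0.49, 0.62 and 0.42 in control 1 to 4, at its spot in row 146. All PNFLX samples lay below all controls, and the log2 difference was -0.44 (SE 0.12, limma adjusted p = 0.177). Its other probe, in row 84, gave -0.28 (SE 0.15). Ctcf, the factor that with cohesin sets which clustered protocadherin promoter is used, had log2 differences of 0.23 (SE 0.15) and 0.15 (SE 0.12). Smc1a, a cohesin subunit, had -0.51 (SE 0.20, limma adjusted p = 0.356) in row 12 and -0.23 (SE 0.14) in row 46. Abi2 and Nckap1, next by p, lay above 0. Abi2 had 1.08 (SE 0.48, limma adjusted p = 0.416) in row 25, well above background on 5 arrays, and 0.01 (SE 0.14) in row 120. Nckap1 had 0.35 (SE 0.17, limma adjusted p = 0.438).

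Enzymes that cleave cadherins, 15 probes of 11 genes, had 8 above 0, 7 below and 0 called. Adam10, the sheddase of N-cadherin and of gamma protocadherins, had a log2 difference of -0.35 (SE 0.32). Mmp2, a matrix metalloproteinase, had one of -0.46 (SE 0.28, limma adjusted p = 0.530) in row 88 and -0.08 (SE 0.22) in row 49. Adam15 lay above 0 at both its spots, with 0.27 (SE 0.22) in row 18 and 0.27 (SE 0.18, limma adjusted p = 0.569) in row 164. Aph1a kept 1 control spot after outlier-flagged spots were left out, so its difference is not given.

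**Figure D4:**
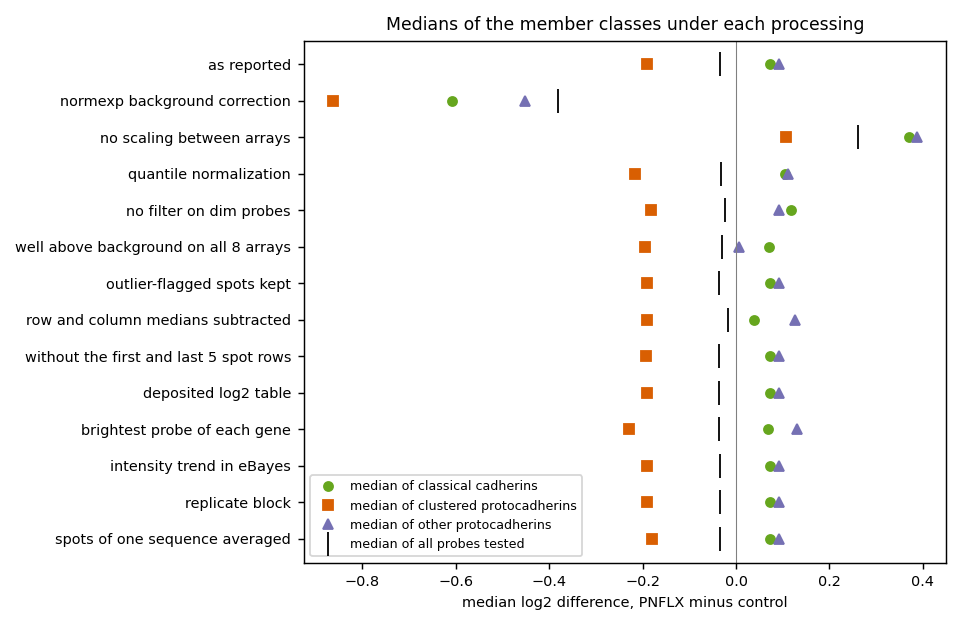
Median log2 difference, PNFLX minus control, of the tested classical cadherin, clustered protocadherin and other protocadherin probes under each processing, with that of all probes tested as a black bar. The clustered protocadherins lie below the median of all probes in every row shown; the other classes lie above it in every row but normexp background correction.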

How the data were processed

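Total RNA was copied into Cy3-labelled cRNA for custom Agilent arrays of 1 colour, per the labels' protocols. The deposited intensity values (processed signal of each spot) were made with Feature Extraction 10.5.1.1 with spatial and multiplicative detrending, per the file headers. The authors also deposited a log2 table, which the processed signals, divided by their array's 75th percentile, put on a log2 scale and centred per probe, matched within 0.00242. Its column medians were -0.04, -0.07, 0.10 and -0.13 for PNFLX 1 to 4 and 0.06, -0.05, 0.04 and 0.04 for control 1 to 4.

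Here processed signals were divided by the 75th percentile over the 15207 probes of their array and put on a log2 scale, without the 521 outlier-flagged spots. Probes that stood well above background on 4 or more arrays (11600) were fitted with limma 3.58.1 in R 4.3.3 (group as the only term, empirical Bayes, Benjamini-Hochberg over all 11600, threshold 0.05). Each spot was kept as its own feature, and the fit was checked on simulated data. SE is limma's moderated standard error. The number of arrays limits the precision.

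The members and lists were chosen with earlier results of these data known. Values in every sample are given for the 12 tested members of smallest p, for genes with several probes, and for Cdh1, Cdh2, Cdh5, Cdh8, Cdh11, Cdh13, Pcdh8, Pcdh9 and Pcdh17, and up to 4 genes of smallest p are named in a list. Ctnnb1, Ctcf and Adam10 were named for their role and Pecam1 as a defining marker, after their values were seen. All 45 probes matched a RefSeq gene of assembly GRCr8 by accession, symbol or synonym. Promoter sequences and exon annotation were not used. Alternatives covered background correction, scaling, filters, spot position, the deposited table, probe choice, the variance model, the replicate number and each sample left out.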

Additional observations from a re-analysis of the deposited data

Results flagged for a closer look

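In 10 of the 89 groups of 4 samples examined (11.2%), over the 45 member probes, 1 sample stood apart from the rest by Dixon's 95% criterion. Chance meets that criterion in about 1 in 20 groups of independent values. These groups share the same arrays and count repeated sequences more than once. The share over all probes is not given, so the count is no trait of the members. In PNFLX 4, Pcdh12 had -2.80 against -5.16 to -4.86 in the other PNFLX samples, Cdh8 (row 57) had -4.65 against -5.49 to -5.38, and Cdh10 had -1.85 against -2.58 to -2.51, while Pcdh8 had -0.15 against 0.54 to 0.59. In PNFLX 1, Pcdh20 had -5.85 in row 168 against -2.46 to -2.13 in the other PNFLX samples. In PNFLX 3, Cdh17, not well above background on any array, had -6.48 against -8.71 to -8.44. In control 1, Pcdh7 had -2.70 against -0.40 to -0.20 in the other controls. In control 2, Pcdh3 (row 14) had -1.93 against -2.47 to -2.39, and Pcdhac2 had 1.37 against 1.69 to 1.74. In control 3, Pcdh20 (row 168) had -3.12 against -2.62 to -2.53. The cause of these values was not tested.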

How the results depend on the processing

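No member probe was called by limma under any of the 21 alternatives. The smallest adjusted p of a member lay between 0.0649 (Cdh5 in row 31, without scaling) and 0.517 (normexp), and members at an unadjusted p under 0.05 numbered 0 with normexp and 13 without scaling. The count of 78 called probes was 50 with normexp (14 higher, 36 lower), 143 without scaling (120 higher, 23 lower), 46 without a filter, 47 with probes well above background on all 8 arrays, 34 after row and column subtraction, 48 with the brightest probe of each gene, and 0 of 11056 without the first and last 5 spot rows, where 1261 had an unadjusted p under 0.05. Leaving out a sample gave between 33 (without control 4) and 104 (without PNFLX 3), with 48, 37 and 50 without PNFLX 1, 2 and 4, and 46, 50 and 35 without control 1, 2 and 3. Normexp moved the medians to -0.61 for classical cadherins, -0.86 for clustered and -0.45 for other protocadherins, and no scaling to 0.37, 0.11 and 0.39, with all probes at -0.38 and 0.26. Members above 0 numbered 6 with normexp and 34 without scaling, against 19 in the values reported. Relative to all probes, clustered protocadherins lay between -0.482 and -0.098 over all alternatives. With a sample left out, the medians ran between 0.03 and 0.17 for classical cadherins, -0.34 and -0.12 for clustered and -0.01 (without control 1) and 0.19 for other protocadherins. Averaging spots of 1 sequence, chosen after seeing the data, gave 61 called probes. Leaving samples out for the partner genes was also added then. The replicate block gave 13 called probes, 0 of them members, and the same medians. Deviations of same-numbered samples correlated between 0.012 and 0.091, and those of differently numbered samples between -0.077 and 0.033. The labels state no pairing, and none was used in the values reported. Without scaling, each array's own signal level stays in the values. The level used for scaling lay between 873 and 941 in PNFLX and between 654 and 880 in control. The log2 difference without scaling was -0.24 for Cdh18, 1.60 for Cdh5 (row 31) and -0.40 for Pcdh1, against -0.53, 1.31 and -0.70 with it. The counts above 0 without scaling hold that gap between arrays. The causes of the other moves, smaller numbers of probes or samples among them, were not tested. Dim probes such as those of Cdh5 and Pcdh12, not well above background on several arrays, limit what can be said of endothelial cadherins.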
